A study of Mus musculus with 18 samples.

Results

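The 6 genes described here make, cut or bind hyaluronan: the synthases Has1, Has2 and Has3, the hyaluronidases Hyal1 and Hyal2, and versican, encoded by Vcan. They were picked by name, as members of this pathway, with earlier results of these data known. Each has 1 row among the 27179 genes of the table. RNA of mouse bone marrow mesenchymal stem cells (MSCs) was sequenced in 18 libraries, which fall into 3 groups of 6: young, old and rejuvenated old. The comparison of old with rejuvenated old MSCs addressed how old cells respond to co-culture with young cells, and the comparison with young MSCs addressed age.

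All groups were primary MSCs of male C57BL6 mice, flushed from tibias and femurs, kept by adherence and used at low passage. Young donors were 6 weeks old and old donors 18 to 24 months old. Old MSCs were cultured by themselves for 7 days at 100000 cells, and rejuvenated old MSCs were the same number of old cells kept for 7 days with young MSCs on the other side of a Transwell membrane with 0.4 micron pores. No library came from old MSCs kept with other old MSCs, so factors of young cells and co-culture as such cannot be told apart. Young MSCs, labelled as without treatment, were harvested at day 7, and their number of cells is not given for these libraries. The titles name each library as a biol rep with a number. How many mice gave the cells, and whether donors were pooled, is not given in the sources used here, so p-values measure the spread between these libraries, which may be technical in part.

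Hyaluronan is a long, unsulphated sugar chain that is spun out through the plasma membrane by the synthases, from UDP-glucuronic acid and UDP-N-acetylglucosamine made in the cytosol. Hyaluronidases and other factors cut it at the cell surface and in lysosomes, and receptors such as CD44 bind and take up the pieces. Versican is a large chondroitin sulphate proteoglycan that binds hyaluronan by its amino-terminal end, and in stromal tissue both form a loose, hydrated coat around cells.

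The libraries held 22936251 to 25648769 reads in young, 24965971 to 29559194 in old and 26018046 to 29155223 in rejuvenated old MSCs. A normalized count is the number of reads of a gene divided by the size factor of its library. The 12 stromal markers summed to 387704 to 415030 in young, 546271 to 574281 in old and 544655 to 585460 in rejuvenated old libraries. All were tested, and 5 were higher and 7 lower in young than in old MSCs. Thy1 averaged 198 in young and 1.19 in old MSCs, whereas Eng averaged 163 and 7340, and Cxcl12 9227 and 197374. A list of 15 macrophage markers summed to 932 to 1049 in young, 16915 to 20965 in old and 16921 to 20586 in rejuvenated old libraries. In young MSCs 9 of the 15 had at most 3 reads in every library, with Ptprc and Adgre1 at 0, and all 14 that were tested were lower than in old MSCs. Against old MSCs, rejuvenated old MSCs had 1 macrophage marker higher and 1 lower. The sums of 6 osteoblast markers were 4450 to 4691 in young, 114468 to 123212 in old and 66389 to 94307 in rejuvenated old libraries, and those of 6 adipocyte markers were 16838 to 19369, 43179 to 45578 and 47581 to 60623. The 5 chondrocyte markers summed to 592 to 655, 2654 to 3012 and 3609 to 4274, and the 7 endothelial markers to 6995 to 7345, 146 to 193 and 186 to 555, Cd34 making up most of the last list in young MSCs. These lists differ between the groups together with the genes below, and their part in the results was not tested. In bulk RNA, fewer cells of a type and less RNA per cell cannot be told apart. A single library stood apart. Rejuvenated old replicate 1 had 402 normalized counts of Cd34, against 24.2 to 41.9 in the other 5, and 21.6 of Thy1, against 0 to 0.951. The young means of these genes were 7006 and 198. Differences between rejuvenated old and old MSCs without this library are given for Has1, Has2, Has3, Hyal1 and Vcan. The lists, shares, ratios and correlations below include it.

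The synthases are related genes, so a stretch of coding sequence is shown for each to let their likeness be seen. It surrounds the 15 bases, in capitals, that all 3 share, and was read from GENCODE transcripts of GRCm38, at coding bases 1183 to 1257 of Has1, 1093 to 1167 of Has2 and 1105 to 1179 of Has3.
Has1: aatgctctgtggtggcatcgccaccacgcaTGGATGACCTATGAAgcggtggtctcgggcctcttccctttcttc
Has2: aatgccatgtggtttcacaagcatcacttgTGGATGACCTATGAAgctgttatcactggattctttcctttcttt
Has3: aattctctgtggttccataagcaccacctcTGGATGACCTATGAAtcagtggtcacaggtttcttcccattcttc
Over the aligned coding sequence Has1 and Has2 had 62.9% of bases in common, Has1 and Has3 68.0%, and Has2 and Has3 68.9%. The longest exact run was 17 bases for either pair with Has1 and 23 bases between Has2 and Has3. Hyal1 and Hyal2 had 63.1% in common, with a longest run of 14 bases.

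In the RefSeq annotation of GRCm38.p6, the assembly also called mm10, Has1 (gene 15116) lies on chromosome 17 at 17833691 to 17855589, Has2 (15117) on chromosome 15 at 56665627 to 56694546 and Vcan (13003) on chromosome 13 at 89655309 to 89743027, all on the minus strand. Has3 (15118) lies on chromosome 8 at 106870242 to 106882902, on the plus strand. The hyaluronidase genes are neighbours on the plus strand of chromosome 9, Hyal2 (15587) at 107567873 to 107572778 and Hyal1 (15586) at 107576950 to 107581699, with 4171 bases between them. Exons of Has2 share 182 bases, 4.30% of its exon length, with the antisense gene Has2os. Exons of Hyal1 share 159 bases, 4.21%, with Hyal3.

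Promoter sequence was found for 4 of the 6 members in the RefSeq table. It is printed for Has1 and Vcan, which had the largest opposite differences with age, and for Hyal1, which was lower in rejuvenated old MSCs. Sequence before the annotated start is given, 5′ to 3′ on the strand of the gene. The last 17 bases before the start of Has1 and the last 23 before that of Hyal1 are left out, from where a GENCODE exon begins. Capitals mark matches of searched motifs. The stretches are Has1 at chr17:17855206-17855438, Vcan at chr13:89742513-89742762 and Hyal1 at chr9:107576700-107576926. The windows of Has1 and Vcan lie within the gene bounds given above, since other transcripts start farther upstream.
Has1: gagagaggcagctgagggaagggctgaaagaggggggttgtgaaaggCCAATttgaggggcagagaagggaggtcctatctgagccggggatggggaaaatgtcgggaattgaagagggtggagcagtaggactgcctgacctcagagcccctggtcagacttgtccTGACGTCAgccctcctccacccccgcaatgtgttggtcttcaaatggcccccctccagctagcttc
Vcan: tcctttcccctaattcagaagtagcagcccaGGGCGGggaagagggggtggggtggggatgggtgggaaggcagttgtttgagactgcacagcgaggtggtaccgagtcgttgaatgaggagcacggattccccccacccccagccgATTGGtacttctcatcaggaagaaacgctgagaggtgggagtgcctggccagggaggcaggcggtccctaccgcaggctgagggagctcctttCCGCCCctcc
Hyal1: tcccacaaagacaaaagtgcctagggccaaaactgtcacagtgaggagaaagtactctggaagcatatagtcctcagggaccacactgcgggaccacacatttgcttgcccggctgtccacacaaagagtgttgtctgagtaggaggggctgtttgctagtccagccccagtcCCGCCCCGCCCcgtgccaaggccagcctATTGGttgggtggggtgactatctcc
The motifs, chosen with these promoters in view, were searched on both strands of the whole 300 bases around a start. TGACGTCA, the palindromic cAMP response element, was in the Has1 window, at positions -83 to -76 counted from the start, and in 1.79% of all 32817 windows. CCAAT was in those of Has1, Vcan and Hyal1 and in 37.4% of all windows. GGGCGG, the GC box, was found at 2 positions each in Vcan and Hyal1, those of Hyal1 overlapping by a base, once in Hyal2, and in 35.6% of all. No match was found in the 4 windows for the TATA box (TATAAA, in 13.6% of all windows), for the AP-1 element (TGANTCA, in 7.81%), for the element bound by TFEB (TCACGTGA, in 0.975%) or for the core of hypoxia response elements (ACGTG, in 19.6%). The last motif is also part of the one before. A match is a run of letters and shows no binding.

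**Figure D1:**
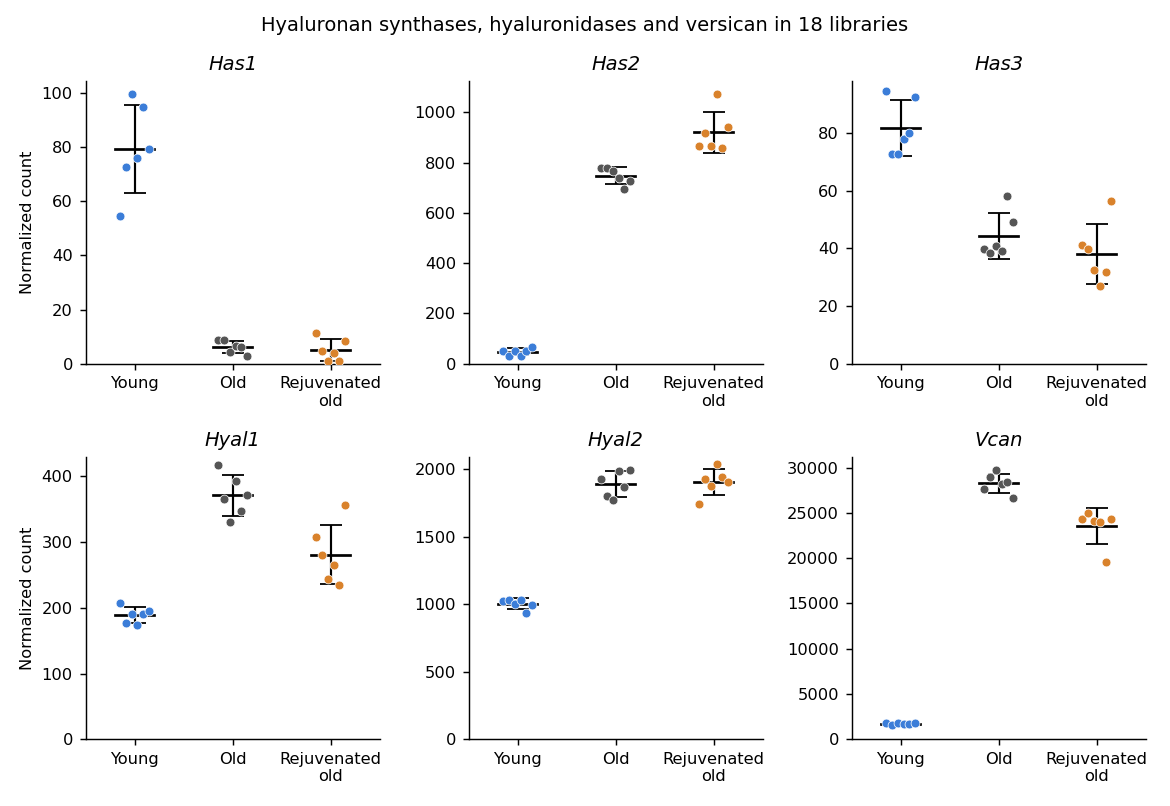
Normalized counts (vertical axes from 0) of the 6 genes in young, old and rejuvenated old MSCs, with 1 point for each library and bars for the mean and SD of 6 libraries. Young libraries are apart from the other groups for all 6 genes, above them for Has1 and Has3 and below them for the others, whereas old and rejuvenated old libraries are apart only for Has2 and Vcan. Of all tested genes, 73.9% had young apart from old, 70.5% young apart from rejuvenated old, and 22.0% old apart from rejuvenated old.

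Between young and old MSCs the synthases differed in opposite directions. Has1 and Has3 were higher in young MSCs and Has2 was far lower. Has2, which encodes the synthase that is essential in the mouse embryo, had a lowest, median and highest value of 30.9, 52.2 and 65.9 in young libraries. In old libraries they were 695, 753 and 781, and in rejuvenated old libraries 858, 893 and 1073. The 3 groups did not overlap, with young lowest and rejuvenated old highest. The old mean was 15.7-fold the young mean, and young minus old was -4.00 on the log2 scale (SE 0.13, limma, Benjamini-Hochberg adjusted p = 4.52e-18).

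Has1 encodes a synthase known to be induced by inflammatory signals. Its lowest, median and highest values were 54.4, 77.6 and 99.4 in young, 2.89, 6.19 and 8.86 in old, and 0.931, 4.29 and 11.3 in rejuvenated old libraries. All young libraries were above all others, while old and rejuvenated old libraries overlapped at a few reads, 3 to 9 and 1 to 11. The young mean was 12.9-fold the old mean, and young minus old was 3.53 on the log2(value + 1) scale, which understates folds of low genes (SE 0.38, limma adjusted p = 1.14e-08).

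Has3 encodes the third synthase of the family. It had 72.6, 78.9 and 94.7 as its lowest, median and highest value in young, 38.4, 40.4 and 58.2 in old, and 27.0, 36.0 and 56.6 in rejuvenated old libraries. Young libraries lay above both other groups, which overlapped. The young mean was 1.85-fold the old mean (log2 difference 0.88, SE 0.16, limma adjusted p = 1.76e-05).

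With co-culture 0 of the 3 synthases passed limma's test, 1 did at an unadjusted p under 0.05, and edgeR and DESeq2 each called 1, in all cases Has2. Of all 14353 tested genes, 5971 passed limma's test and 6972 had an unadjusted p under 0.05, while edgeR called 6213 and DESeq2 6345. Has2 had a mean of 920 ± 81.9 in rejuvenated old and 748 ± 34.2 in old MSCs (SD, n = 6 each), a ratio of 1.23. All 6 rejuvenated old libraries were above all 6 old ones, and the log2 difference was 0.29 (95% interval 0.02 to 0.57, limma adjusted p = 0.0828). This call depended on the setting. Adjusted p was 0.0410 with a pseudocount of 10, 0.000362 in limma with only these groups, 0.00223 with edgeR and 2.60e-05 with DESeq2 on the reads, and 0.0404, 0.0439 and 0.0467 without young replicate 2, 4 or 6. The young libraries, which spread most for Has2 on the log2 scale at 31 to 64 reads, enter the spread of the common fit. Has1 differed by -0.51 (95% interval -1.30 to 0.29, limma adjusted p = 0.309) and Has3 by -0.23 (95% interval -0.56 to 0.09, limma adjusted p = 0.244). Without rejuvenated old replicate 1, which had the highest Has1 value of its group, the differences were -0.78 for Has1, 0.31 for Has2 and -0.26 for Has3, none of them called by limma. With single libraries left out, Has1 ran from -0.78 to -0.24, the latter without rejuvenated old replicate 5, and was -0.25 without replicate 3. Has3 ran from -0.35, without rejuvenated old replicate 6, to -0.15, without rejuvenated old replicate 4 or old replicate 5.

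Reads of Has2 and its antisense partner may not have been separated, since the strand setting of the counting is not stated. Has2os had 0 to 8 reads in young, 5 to 13 in old and 8 to 17 in rejuvenated old libraries. That was up to 25.8% of the Has2 reads in young and at most 1.72% and 2.02% in the other groups. Has2 had 31 to 64 reads in young and 693 to 811 in old libraries, and the part of Has2os in these was not tested.

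**Figure D2:**
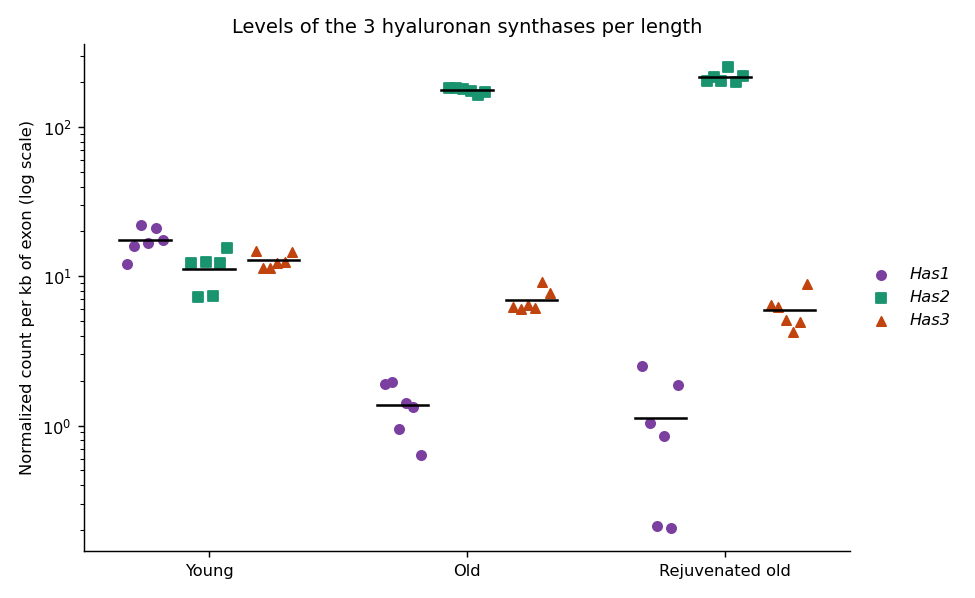
Normalized counts per kilobase of exon (vertical axis, log scale) of Has1, Has2 and Has3, with 1 point for each library and a line at the mean of 6 libraries. The synthases lie within a narrow range in young MSCs, from a mean of 11.2 to 17.6, whereas Has2 is far above the others in old and rejuvenated old MSCs, at 177 and 217.

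Levels of different genes were compared per kilobase of exon. The summed level of the 3 synthases was 41.6 ± 5.49 normalized counts per kilobase in young MSCs, 184.9 ± 7.30 in old MSCs and 224 ± 19.2 in rejuvenated old MSCs (SD, n = 6), with no overlap between groups. Has2 made up 26.6% ± 5.13 of it in young MSCs, 95.5% ± 0.762 in old MSCs and 96.8% ± 1.05 in rejuvenated old MSCs. Young MSCs thus held their synthase transcripts in 3 kinds and the other groups mostly in 1. Has1 made up 42.3% ± 6.93, 0.735% ± 0.263 and 0.497% ± 0.425, and Has3 31.1% ± 4.64, 3.77% ± 0.819 and 2.68% ± 0.727 in the same order. The length matters for Has1, whose exon length of 4518 bases includes a retained intron. With the longest protein-coding transcript, an alternative added after the data were seen, its share in young MSCs was 60.0% and that of Has2 17.7%.

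The hyaluronidases were both lower in young than in old MSCs, and Hyal1 was also lower in rejuvenated old MSCs. Hyal1, a lysosomal enzyme that cuts hyaluronan into small fragments, had 174, 190.4 and 208 as its lowest, median and highest value in young, 331, 368 and 417 in old, and 235, 272 and 356 in rejuvenated old libraries. Young libraries lay below both other groups. A single rejuvenated old library, replicate 6 at 356, reached into the range of the old ones, above the old libraries at 331 and 347. The rejuvenated old mean was 0.758-fold the old mean (log2 difference -0.41, SE 0.09, limma adjusted p = 0.000592), and -0.44 without rejuvenated old replicate 1. Young minus old was -0.97 (limma adjusted p = 4.27e-10) and young minus rejuvenated old -0.56 (limma adjusted p = 3.06e-06).

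Hyal2, which is held at the cell surface by a lipid anchor and starts the cutting of long chains, had 934, 1015 and 1035 in young, 1774, 1897 and 1996 in old, and 1739, 1917 and 2038 in rejuvenated old libraries. Old and rejuvenated old libraries covered nearly the same range, and all young libraries were below them. Rejuvenated old minus old was 0.01 (95% interval -0.07 to 0.09, limma adjusted p = 0.864), and its sign turned with the scaling or a library left out. Young minus old was -0.91 (SE 0.04, limma adjusted p = 8.44e-16). Per kilobase, Hyal2 was 6.13 ± 0.527 times Hyal1 in young MSCs, 5.88 ± 0.359 in old MSCs and 7.96 ± 1.37 in rejuvenated old MSCs (SD, n = 6), and the groups overlapped. Hyal3, which shares exon bases with Hyal1, was low, at a mean of 11.4, 18.7 and 15.7.

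Vcan had the highest level per kilobase of the 6 genes in old MSCs and the largest difference in reads between ages. Its lowest, median and highest values were 1574, 1740 and 1809 in young, 26624, 28281 and 29784 in old, and 19607, 24234 and 25010 in rejuvenated old libraries. The groups did not overlap, with young lowest and old highest. The old mean was 16.4-fold the young mean (young minus old -4.04, SE 0.05, limma adjusted p = 3.98e-26). Rejuvenated old MSCs had 0.834-fold the old mean (log2 difference -0.26, SE 0.05, limma adjusted p = 0.000134). Rejuvenated old replicate 5, at 19607, lay below the other 5, at 24002 to 25010. Without it the difference was -0.21 (limma adjusted p = 4.38e-05), and without replicate 1 it was -0.27.

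Per kilobase, Vcan was 11.4 ± 3.16 times Has2 in young MSCs, 11.1 ± 0.556 in old MSCs and 7.54 ± 0.742 in rejuvenated old MSCs (SD, n = 6). The old and rejuvenated old ranges of this ratio, 10.4 to 12.0 and 6.55 to 8.24, were apart. After co-culture the mean of Vcan was lower and that of Has2 higher, the latter not called by limma (adjusted p = 0.0828). The ratio was not tested.

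Against young MSCs all 6 genes passed the test, Has1 and Has3 higher in young and the other 4 lower, and the groups did not overlap for any of them. The share of all 14353 tested genes that passed was 85.7% for young against old and 85.6% for young against rejuvenated old, and 73.9% and 70.5% had groups that did not overlap, so 6 of 6 is near the background. Between rejuvenated old and old MSCs 2 of the 6 were called, both lower, and 41.6% of all genes were called. The groups did not overlap for 2 of 6, Has2 and Vcan, against 22.0% of all genes. The median log2 difference of the members was -0.25 for rejuvenated old minus old, -0.94 for young minus old and -0.74 for young minus rejuvenated old, and that of all tested genes was 0.0081, -0.022 and -0.025. All 6 members passed the filter on low values, a mean of 10 over the 18 libraries. Has1 did so only through the young group, where its mean was 79.4, against 6.17 (old) and 5.05 (rejuvenated old). Its calls with age are thus not independent of the filter, and the 6 of 6 above includes it. With co-culture, Has1 was compared at means below 10. The comparisons between groups share libraries.

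On the log2 scale, the mean of rejuvenated old MSCs lay 42.4% of the way from old to young for Hyal1 and 6.56% for Vcan, the genes that were called. For the others, none of them called by limma with co-culture, it lay on the far side of old. It was at -7.37% for Has2, -14.3% for Has1, -26.7% for Has3 and -1.11% for Hyal2, whose sign turned with the scaling or a library left out. The old libraries enter both parts of this share, so it is a description. Young minus rejuvenated old was 4.04 for Has1, -4.30 for Has2, 1.11 for Has3, -0.92 for Hyal2 and -3.77 for Vcan.

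The order of the levels per kilobase differed between groups. In young MSCs it was Hyal2 at 305, Vcan at 119, Hyal1 at 50.02, Has1 at 17.6, Has3 at 12.8 and Has2 at 11.2, where the ranges of Has1 and Has3, and of Has3 and Has2, overlapped. The distance of Has1 from the other synthases in young MSCs depends on the length used, as above. In old MSCs Vcan led at 1954, followed by Hyal2 at 575, Has2 at 177, Hyal1 at 98.1, Has3 at 6.94 and Has1 at 1.37, with no neighbours overlapping. Rejuvenated old MSCs had the order of old MSCs, at 1630, 579, 217, 74.3, 5.97 and 1.12.

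Other genes of hyaluronan and versican biology were taken as lists of 73 genes in the table, of which 60 were tested. Young MSCs had 19 higher and 38 lower than old MSCs, so 57 of 60 were called, against 85.7% of all tested genes, of which 41.6% were higher and 44.1% lower. Some passed the filter only through groups where they were high. Tnr, Chst3, Adamts15 and Hapln2 had means under 10 outside the young group, and Bcan, Fbn2 and Chsy3 in it. The calls of such genes with age are not independent of the filter. Co-culture gave 11 higher and 21 lower, so 32 of 60 were called, against 41.6% of all, 21.0% higher and 20.6% lower. The counts of each list below stand against the same shares. For the other rules used with co-culture, 6972 of all 14353 genes had an unadjusted p under 0.05 in limma, edgeR called 6213 and DESeq2 6345. The median log2 difference over the 60 was -0.43 and -0.01.

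**Figure D3:**
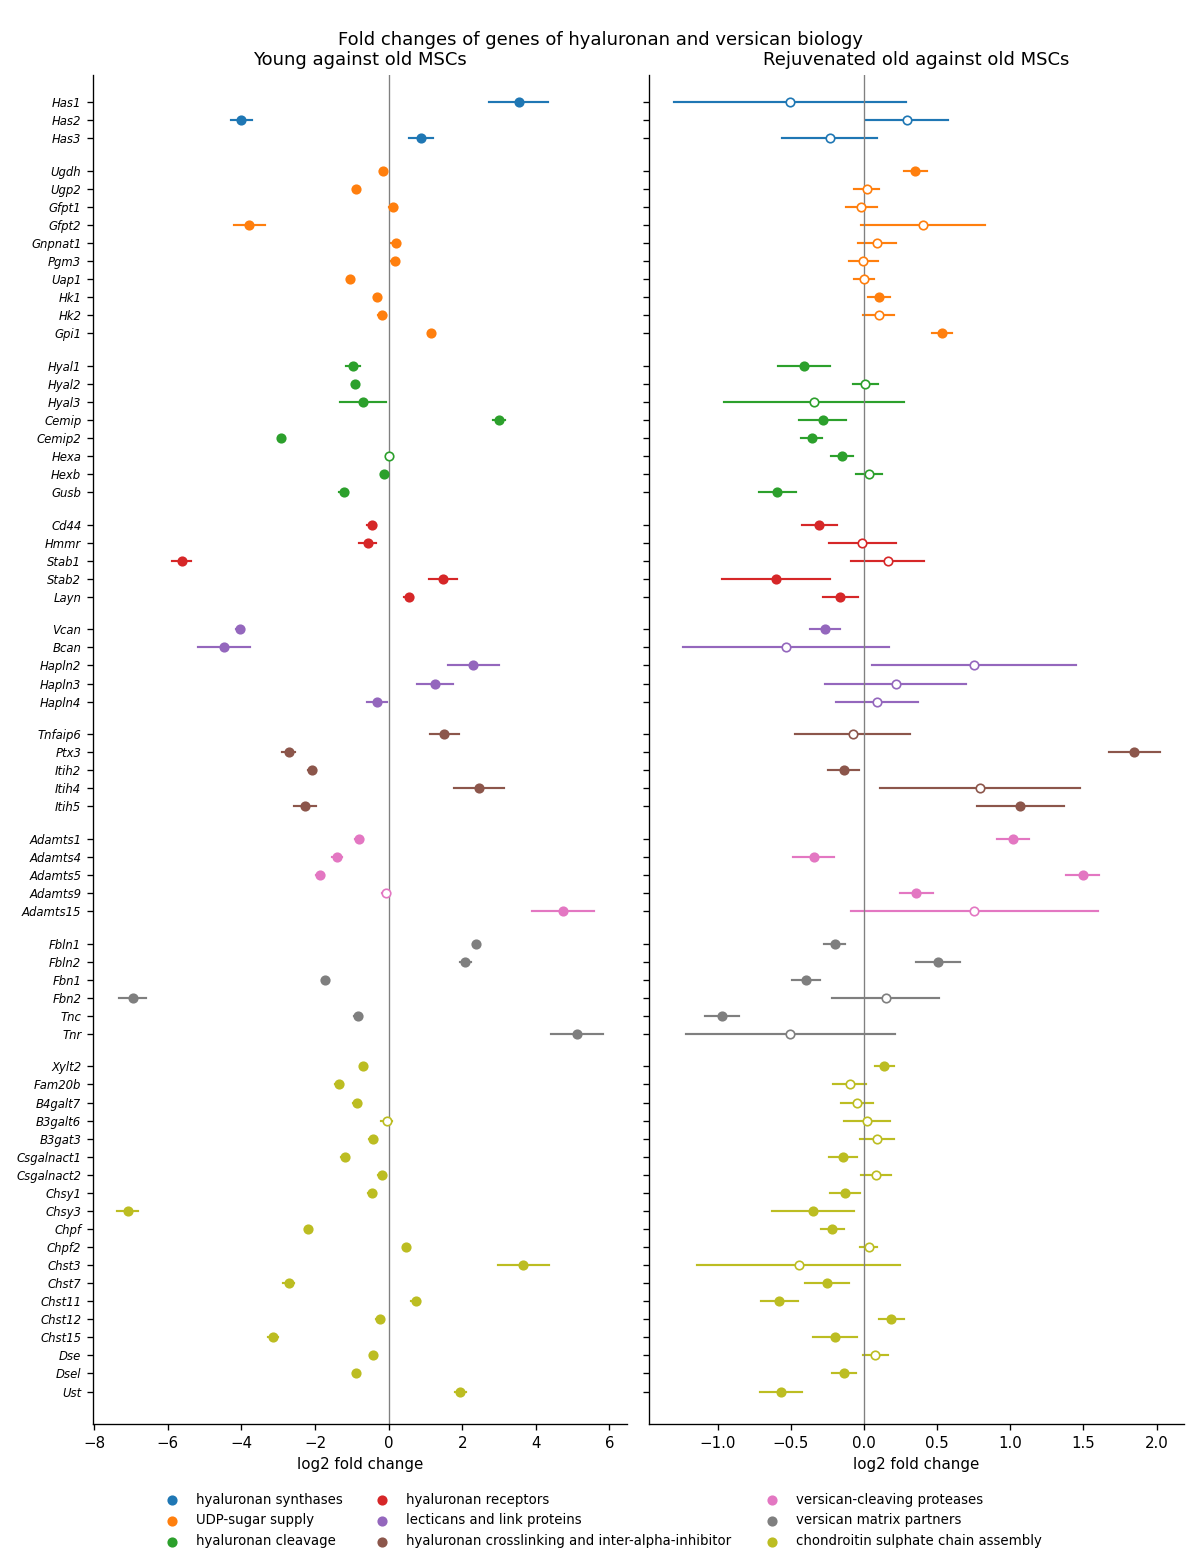
Log2 fold changes (horizontal axes, of different range) of the 6 genes and 60 others by list, for young against old MSCs and rejuvenated old against old MSCs. Points are estimates, lines 95% intervals, and filled points passed limma's test. Has2, Vcan, Cemip2 and Stab1 lie to the left with age and Has1 and Cemip to the right, and Ptx3 and Adamts5 lie farthest to the right with co-culture.

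Genes that supply UDP-sugars were called in both directions with age, 4 higher and 6 lower in young MSCs, and with co-culture 3 of 10 were higher and 0 lower, the same at an unadjusted p under 0.05. By edgeR and DESeq2 4 were higher, Gfpt2 among them, and 0 lower. The 3 that rose, named after their values were seen, were Gpi1, Ugdh and Hk1. Gpi1, a glycolytic isomerase that makes the fructose phosphate from which the amino sugar is built, had a mean of 16567 in young MSCs, 7447 in old MSCs and 10779 in rejuvenated old MSCs. Its log2 difference was 0.53 with co-culture (limma adjusted p = 1.33e-11). Ugdh, which makes UDP-glucuronic acid, had 4677, 5208 and 6637. Gfpt2, an isoform of the enzyme that commits sugar to this pathway, had 4.02, 64.6 and 85.2, and was called for age but not for co-culture (limma adjusted p = 0.122).

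Among 6 other genes of hyaluronan cleavage, 4 fell with co-culture and 0 rose, also by edgeR, by DESeq2 and at an unadjusted p under 0.05. They were Cemip, Cemip2, Hexa and Gusb. Cemip encodes a secreted or membrane-bound factor needed for hyaluronan breakdown in fibroblasts, and Cemip2 a related surface protein with reported hyaluronidase activity. They differed in opposite directions with age. Cemip had a range of 2602 to 2926 in young, 314 to 368 in old and 226 to 349 in rejuvenated old libraries, and Cemip2 675 to 759, 5115 to 5599 and 3884 to 4376. Per kilobase, Cemip was 2.65 ± 0.204 times Cemip2 in young MSCs and 0.0437 ± 0.00254 times in old MSCs (SD, n = 6), and 0.0465 ± 0.00796 times in rejuvenated old MSCs. Gusb, the lysosomal beta-glucuronidase that takes sugars off fragment ends, fell from 3198 in old to 2132 in rejuvenated old MSCs (log2 difference -0.59, limma adjusted p = 8.40e-08) and was 1374 in young MSCs. Hexa, a subunit of the lysosomal hexosaminidase, had 7446 in young MSCs, 7339 in old MSCs and 6616 in rejuvenated old MSCs, with the young and old means not called as different (limma adjusted p = 0.593).

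**Figure D4:**
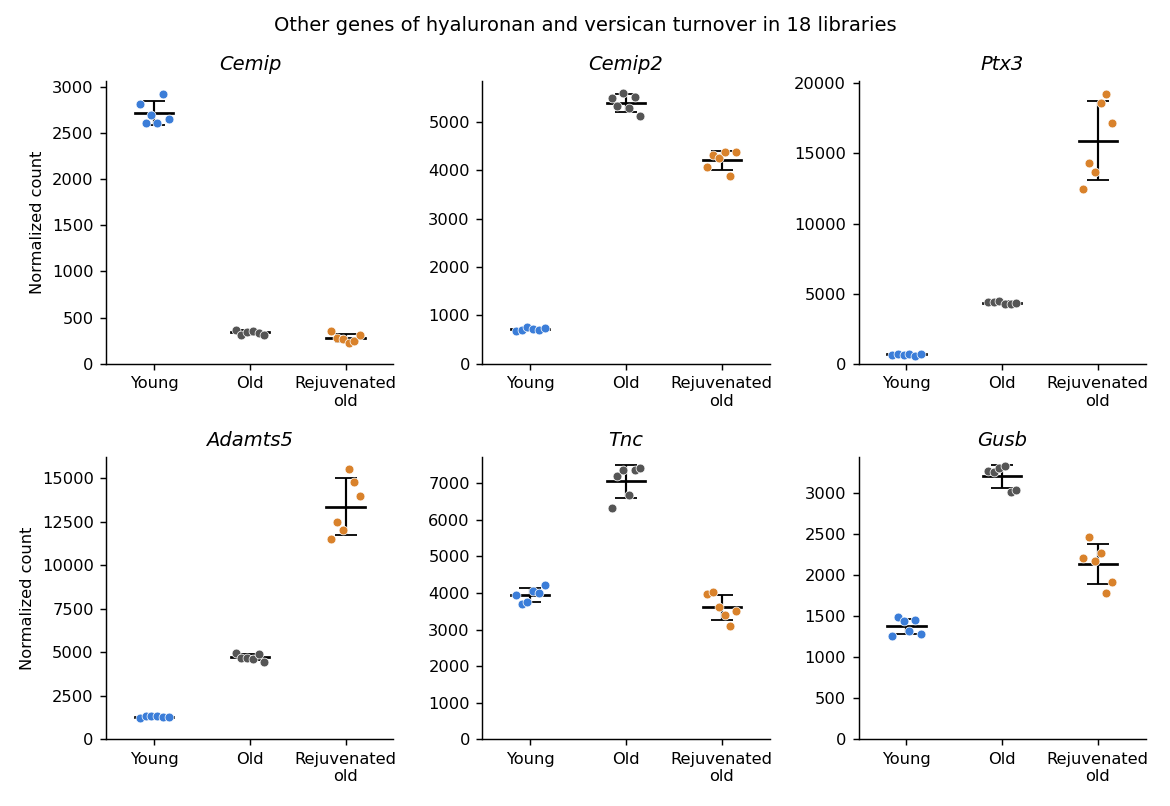
Normalized counts (vertical axes from 0) of 6 other genes in young, old and rejuvenated old MSCs, with 1 point for each library and bars for the mean and SD of 6 libraries. Cemip is high only in young MSCs and Cemip2 low only there, Ptx3 and Adamts5 are highest in rejuvenated old MSCs, Tnc is highest in old MSCs, and Gusb in rejuvenated old MSCs lies between the other groups.

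Hyaluronan receptors had 2 genes higher and 3 lower in young than in old MSCs, and 3 of 5 lower with co-culture, Cd44, Layn and Stab2. Cd44, the main surface receptor, had a mean of 2137 in young MSCs, 2954 in old MSCs and 2399 in rejuvenated old MSCs (log2 difference with co-culture -0.30, limma adjusted p = 0.000176). Stab1, a scavenger receptor of macrophages and sinusoidal endothelium, had 16.5 to 29.1 in young and 993 to 1333 in old libraries. Stab2, the related clearance receptor, had 96.1 to 150.2, 31.2 to 57.2 and 19.6 to 44.4 in young, old and rejuvenated old libraries, and was lower with co-culture by -0.60 (limma adjusted p = 0.00981). Stab1 differed between young and old in the direction of the macrophage markers above, and their part in its difference was not tested.

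Beside Vcan, the lecticans and link proteins were low. Bcan, a brain lectican, had 0 to 4 reads in young and 39 to 63 in old libraries, and Hapln2, a link protein that ties lecticans to hyaluronan, had 18 to 34 reads in young and 1 to 13 in old libraries. Of the 4 tested, 2 were higher and 2 lower in young MSCs, and 0 were called with co-culture by limma. At an unadjusted p under 0.05 limma had 1, Hapln2, and edgeR and DESeq2 each called 1, Bcan, as lower.

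Proteins that crosslink hyaluronan had 2 genes higher, Ptx3 and Itih5, and 1 lower, Itih2, of 5 with co-culture, also by edgeR. DESeq2 called 3 higher, Itih4 among them, and 1 lower, as did limma at an unadjusted p under 0.05. Ptx3, a pentraxin that links hyaluronan complexes, ranged from 562 to 726 in young, 4291 to 4486 in old and 12478 to 19235 in rejuvenated old libraries. All rejuvenated old libraries were far above the old ones, and the mean was 3.65-fold higher (log2 difference 1.85, SE 0.08, limma adjusted p = 9.87e-14). Itih2, a heavy chain that is moved onto hyaluronan, had a mean of 726 in young MSCs, 3082 in old MSCs and 2797 in rejuvenated old MSCs, and was lower with co-culture by -0.14 (limma adjusted p = 0.0363). Itih4, a relative of the heavy chains, had 24 to 38 reads in young, 2 to 11 in old and 4 to 18 in rejuvenated old libraries.

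Of 5 tested proteases that cut versican, 3 were higher with co-culture, 1 was lower and 1 was not called. The 3, named after their values were seen, were Adamts1, Adamts5 and Adamts9. Adamts5 ranged from 1253 to 1329 in young, 4468 to 4933 in old and 11503 to 15509 in rejuvenated old libraries, a 2.83-fold higher mean with co-culture (log2 difference 1.49, SE 0.06, limma adjusted p = 3.71e-15). Adamts1 had means of 1989, 3493 and 7099. Adamts4 had 343, 908 and 718 and was lower with co-culture by -0.34 (limma adjusted p = 0.000324). Adamts15 was at 70 to 93 reads in young and at 1 to 6 in old libraries. Versican protein and its fragments were not measured.

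Matrix partners of versican had 1 gene higher, Fbln2, and 3 lower, Fbln1, Fbn1 and Tnc, of 6 with co-culture. Fbln2, a fibulin that binds the end of versican opposite to hyaluronan, had means of 47967 in young MSCs, 11309 in old MSCs and 16179 in rejuvenated old MSCs (log2 difference with co-culture 0.50, limma adjusted p = 7.12e-06). Tnc, the matrix glycoprotein tenascin-C, had 3948, 7047 and 3605, so that its rejuvenated old mean was below the young one, and it fell by 0.97 with co-culture (limma adjusted p = 3.82e-12). Fbn2, a fibrillin, had 0 to 1 reads in young and 118 to 164 in old libraries, and Tnr, the related tenascin-R, had 44 to 61 in young and 0 to 3 in old libraries.

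The enzymes that build and sulphate the chondroitin chains carried by versican had 4 genes higher and 14 lower of 19 in young MSCs, and 2 higher and 9 lower with co-culture. Chpf, a chain polymerizing factor, had means of 3147 in young MSCs, 14355 in old MSCs and 12352 in rejuvenated old MSCs. Chst11, which sulphates the chain at the 4-position, had 1418, 851 and 570.2 (log2 difference with co-culture -0.58, limma adjusted p = 9.58e-08), and Chst12, which does so as well, had 2232, 2652 and 3016 (0.19, limma adjusted p = 0.000873). Chst3, which sulphates the 6-position, had 49 to 70 reads in young and 2 to 6 in old libraries. Chsy3, a chain synthase, had 0 reads in all young and 105 to 160 in old libraries.

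The genes whose log2 levels ran most like each member over the 18 libraries, by Pearson r, mostly followed the difference between young and other libraries, which share that split and their depth. For Vcan these were Ccnd2, Efemp1 and Shox2 (r 0.999 each), and 693 genes had an r of at least 0.99. For Has2 they were Cnrip1 (0.998), Pde2a (0.997) and Fam213a (0.997), with 214 genes at that level, and for Hyal2 Enho (0.995), Hist1h2bc (0.995) and Suox (0.994), with 133. No gene reached 0.99 for the other members. Those closest were Rragb, Casc4 and Zfp719 for Has1 (0.972 to 0.977), Kat6b, Tnrc6a and Brpf1 for Has3 (0.9499 to 0.956) and Chd3, Acox3 and Hspg2 for Hyal1 (0.965 to 0.966). In deviations from the group means, Cnrip1 (0.907), Pde2a (0.879) and Rnf125 (0.844) were closest to Has2, and Pxdn (0.921), Tanc1 (0.917) and Glg1 (0.914) to Vcan. The others were Rragb, Casc4 and Lcp2 for Has1 (0.829 to 0.884), Nfat5, Tnrc6a and Nsd3 for Has3 (0.886 to 0.915), Slc25a37, Acox3 and Slurp1 for Hyal1 (0.823 to 0.852), and Hexim1, Fam3a and Gtf3c5 for Hyal2 (0.828 to 0.846). Among the members, Has2 and Vcan had an r of 0.987 in levels and 0.476 in deviations, and Has1 and Hyal1 had -0.669 and 0.698.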

How the data were processed

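RNA of 18 mouse MSC cultures was sequenced from stranded mRNA libraries. According to the methods and the submitters' processing notes, the authors aligned reads to mm10 with HISAT2, used StringTie and featureCounts, and normalized counts with DESeq2. Versions, annotation, strand setting and the treatment of reads that match several places are not given in the sources used here. Each deposited value is a signal, the reads of a gene in 1 library divided by its size factor. All values, 100% within 0.01 read, were whole multiples of a step, which gave the reads.

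Values were tested as log2(value + 1) in limma 3.58.1 (R 4.3.3), with all 3 groups in 1 fit, a prior variance that follows the mean and 14353 genes with a mean of at least 10. Benjamini-Hochberg adjusted p under 0.05 was called. Pseudocounts, filters, scalings, fits, edgeR 4.0.16, DESeq2 1.42.0 and each library left out were tried as alternatives. No pair of libraries of a group agreed within sampling noise, and the fit was tested on simulated data. Lengths were unions of GENCODE exons (GRCm38). Tables and figures were made with Python 3.11.15, pandas 2.3.3 and matplotlib 3.10.9.

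The members, lists and tests were chosen with earlier results of these data known. Named were the 6 members, for each list and comparison the called genes with the largest rise and fall, the most abundant gene of each list, and the 3 genes most like each member in levels and in deviations, passing over predicted or unnamed genes. Where genes behind counts of 5 or fewer are named outside these rules, they were named after their values were seen.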

Additional observations from a re-analysis of the deposited data

Results flagged for a closer look

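Of 96 groups of 6 libraries over 32 genes, 5 held a library far from the other 5 by Dixon's test, and chance flags about 1 in 20 groups. Vcan in rejuvenated old replicate 5 had 19607 normalized counts, below the 24002 to 25010 of the other libraries. Gfpt2 in young replicate 6 had 8.24, above 2.02 to 4.26. The other 3 rest on 1 to 3 reads. Fbn2 was at 1.01 in young replicate 4 and at 0 in the others, Tnr was at 3.01 in old replicate 5 against 0 to 1.08, and Tnr was at 0.951 in rejuvenated old replicate 3 and at 0 in the others.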

How the results depend on the processing

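Of the 18 tests of members, 16 kept their direction and their side of the threshold under every alternative that gave a value, 12 settings and 18 libraries left out in turn. Has1 has no value with a minimum mean of 50. The exceptions are both of rejuvenated old against old MSCs. Has2 was called with a pseudocount of 10 (0.29), with only these groups in the fit (0.29), with edgeR (0.30) and with DESeq2 (0.29), and with single libraries left out it ranged from 0.25 to 0.31, with adjusted p from 0.0404 to 0.172. The cause was not tested. Hyal2 turned to -0.0056 with the same total in every library, and ranged from -0.0095 to 0.036 with libraries left out, never called. With the longest protein-coding transcript as length, chosen after seeing the data, the share of Has1 among synthases became 60.0% (young), 1.57% (old) and 1.06% (rejuvenated old), that of Has2 17.7% in young and 94.4% in old, and that of Has3 22.3% in young. The most similar genes changed most with Spearman's rho, which kept 0 or 1 of the 3 names in 11 of 12 cases. Replicate numbers did not pair the libraries: correlations of same-numbered deviations ran from -0.152 to 0.0736, and 1, 0 and 0 of 6 were best with their own number. A replicate block gave 5769, 12219 and 12210 called genes against 5971, 12297 and 12288, and changed no call of a member. Has1 in old MSCs, at 3 to 9 reads, and Has2 in young MSCs, at 31 to 64, are limited by depth.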

Other observations

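The tested genes next in order to the members on the chromosome were read from the annotation and given as values, chosen after they were seen. By their coordinates Spaca6, Gm4117 and Naa80 overlap the bounds of Has1, Vcan and Hyal1, and the part of shared reads was not tested. Others lie far off. Sntb1 ends at 55907302 and Zhx2 starts at 57694667, with Has2 at 56665627 to 56694546 between them, and Edil3 ends at 89323225, with Vcan starting at 89655309. Edil3, the tested neighbour of Vcan at lower coordinates, encodes a secreted integrin-binding matrix protein. Means were 414 (young), 853 (old) and 416 (rejuvenated old). Rejuvenated old minus old was -1.04 (limma adjusted p = 4.29e-10), and young minus rejuvenated old was -0.0056 (limma adjusted p = 0.947), so its rejuvenated old level lay by the young one while Vcan stayed near the old one. Fpr1, a formyl peptide receptor gene beside Has1, had 81.6, 8.13 and 10.8, and was higher in young than in old MSCs by 3.26 (limma adjusted p = 1.68e-09), as Has1 was. Sntb1, the tested neighbour of Has2 at lower coordinates, had 6.98, 51.9 and 42.8, lower in young than in old MSCs (young minus old -2.81, limma adjusted p = 3.63e-10). The neighbours on the other side were Zhx2 for Has2, with 647, 429.6 and 411, higher in young than in old MSCs (0.59, limma adjusted p = 1.62e-10) against the direction of Has2, and Spaca6 for Has1, with 948, 542 and 423 (0.81, limma adjusted p = 6.12e-08). For the remaining neighbours, young minus old was -2.22 for Gm4117 by Vcan, 0.68 for Tango6 and 0.16 for Chtf8 by Has3. It was -0.60 for Naa80 by Hyal1 and 0.22 for Tusc2 by Hyal2, the latter against the direction of Hyal2. Of all tested genes, 41.6% were called higher and 44.1% lower in young than in old MSCs. The median young minus old over all tested genes of the chromosome was 0.22 for chromosome 17, 0.20 for 15 and -0.30 for 13.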
